A study of Mus musculus with 6 samples.

Results

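Matrix metalloproteinases (Mmp), their tissue inhibitors (Timp), the membrane-anchored Adam proteases, the secreted Adamts proteases with their non-catalytic Adamtsl relatives, and the lysyl oxidases (Lox and Loxl) cut, protect, shed and cross-link the matrix around a fibroblast. The genes were chosen by symbol alone: every row of the table whose name is Mmp, Timp, Adam, Adamts, Adamtsl, Lox or Loxl with its family number. This gave 63 of the 19078 genes listed, of which 15 are Mmp, 4 Timp, 21 Adam, 13 Adamts, 5 Adamtsl and 5 lysyl oxidase genes. The rule itself uses no expression value, though it was set with earlier results of these data known. A further 26 genes of these names in the mouse annotation were not analysed here.

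RNAseq was performed on immortalized mouse fibroblasts (MF), with 3 libraries of Ms4a15 OE cells and 3 of control cells. The study's methods describe the fibroblasts as a male embryonic line with conditional Gpx4 knockout, Cre-ERt2 and the CRISPR activation system. Loss of Gpx4 in this line has to be induced, and the RNAseq methods name no induction. Ms4a15 OE cells are a pool, selected with G418, in which a lentiviral guide activates the endogenous Ms4a15 gene; Ms4a15 encodes a membrane protein of the MS4A family. Control cells are wild type by their labels and received an empty lentivirus by the study's methods. Neither the labels nor the methods say whether the 3 libraries of a group came from separate cultures, so the p-values measure the spread between these libraries, which may be technical. The targeted gene had a mean of 1275 normalized counts in Ms4a15 OE and was under the floor of 3 counts per library in control (log2 fold change 12.84, SE 1.18, adjusted p = 2.14e-26). Against the floor it was at least 449-fold higher, and the fitted fold change is no measure of size.

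Gene positions are those of GRCm38, which is mm10. Normalized counts are read counts divided by a size factor that corrects each library for its depth. These factors were 0.887, 0.938 and 1.02 in Ms4a15 OE and 0.946, 1.11 and 1.14 in control, so the deepest library was 1.28 times the shallowest. The deposited table gives each gene's mean over all 6 libraries and the log2 fold change between groups. Group means were derived from these values. For members with a mean under 320, the reads of single libraries were recovered from the mean and the fold change where only 1 set of whole numbers fitted. This succeeded for 34 of 37 such members, and the order of the libraries within a group is arbitrary. The recovered reads are given as a description. Throughout, a gene rose or fell when its DESeq2 p-value, adjusted over all genes, was under 0.05, and a positive log2 fold change means a higher level in Ms4a15 OE.

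Mmp enzymes are zinc proteases, secreted or held at the cell surface, that cut collagens and other matrix proteins after a propeptide has been removed. Timp proteins block them by binding the active site. Adam proteases mostly release the outer part of other membrane proteins, Adamts proteases cut proteoglycans or process procollagens, and lysyl oxidases oxidize lysines of collagen and elastin so that the fibres cross-link. Fibroblasts are a main source of several of these enzymes and of the collagens they act on.

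The promoters of 3 Mmp genes of the cluster on chromosome 9 are shown because Mmp3 and Mmp10 fell while Mmp13 did not pass the test. Mmp20, a further member there, had 1 read in all and its promoter is not printed. Each line gives the 250 bases before the RefSeq start (GRCm38.p6, plus strand), with the AP-1 motif TGANTCA and the TATA motif TATAAA in capitals. AP-1 factors are Fos and Jun dimers, long known as regulators of Mmp genes.
Mmp3, chr9:7445572-7445821: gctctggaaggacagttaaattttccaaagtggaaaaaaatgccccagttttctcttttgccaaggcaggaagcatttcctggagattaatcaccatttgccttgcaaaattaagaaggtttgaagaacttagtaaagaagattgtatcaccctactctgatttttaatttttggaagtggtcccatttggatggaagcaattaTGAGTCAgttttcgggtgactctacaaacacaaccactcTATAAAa
Mmp10, chr9:7502092-7502341: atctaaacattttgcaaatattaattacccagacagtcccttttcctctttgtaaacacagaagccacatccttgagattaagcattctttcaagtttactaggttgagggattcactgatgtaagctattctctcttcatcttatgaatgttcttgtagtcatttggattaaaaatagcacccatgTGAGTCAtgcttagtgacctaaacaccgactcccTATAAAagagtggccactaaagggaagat
Mmp13, chr9:7272264-7272513: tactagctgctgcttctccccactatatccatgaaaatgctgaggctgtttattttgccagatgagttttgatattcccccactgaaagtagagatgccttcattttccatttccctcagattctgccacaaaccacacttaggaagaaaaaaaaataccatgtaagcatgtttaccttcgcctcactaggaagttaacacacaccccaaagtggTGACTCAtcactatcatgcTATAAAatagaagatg
Each window holds 1 AP-1 motif, which begins 46 bases before the start in Mmp3, 63 in Mmp10 and 35 in Mmp13. The letters are TGAGTCA in Mmp3 and Mmp10 and TGACTCA in Mmp13. Over all 32851 RefSeq windows of the same length, 6.75% hold TGANTCA on either strand and 7.59% hold TATAAA on the gene's strand, and the letters of these motifs do not overlap in the sequences printed. Mmp2, Mmp9, Mmp19, Adam3, Adam12, Lox, Loxl1, Loxl2 and Loxl3 are among the members without a window, so their promoters were not searched. A member counts if any of its windows holds the motif, while the background counts single windows. Of the 35 members with a window, 5 hold TGANTCA: Mmp3, Mmp10, Mmp13, Mmp20 and Adam19. TATAAA is in 7, and the GC box GGGCGG, searched on both strands, is in 21 members against 32.7% of all windows. Mmp11, Mmp14, Timp1, Timp2, Timp3 and Loxl4 are among the members with a GC box. These are matches of letters and were not tested for any factor's binding.

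Of the 63 genes, 28 differed between the groups, 9 higher and 19 lower in Ms4a15 OE. Among all genes listed, 42.9% differed, 21.5% higher and 21.5% lower, and the members' share was 44.4%, close to that background. The median log2 fold change was -0.07 over the members and 0.04 over all genes. Many members were hardly expressed: 14 were under the floor of 3 counts per library in both groups, 24 had a mean under 10, and 12 had at most 3 reads in all 6 libraries together. Among the 30 members with a mean of at least 100, 23 differed, 7 higher and 16 lower, with a median of -0.43. All genes at that level differed in 65.6%, 30.7% higher and 34.9% lower, with a median of -0.02. By the fitted values, Mmp19, Adam3 and Timp4 rose past a log2 fold change of 1, and Mmp2, Mmp3, Mmp9, Mmp10, Adam12, Adamts1, Timp3, Lox and Loxl4 fell past it. For Mmp9 and Timp4, with no read in a group, only a bound on the fold is known, and for Timp4 that bound is below this size.

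**Figure D1:**
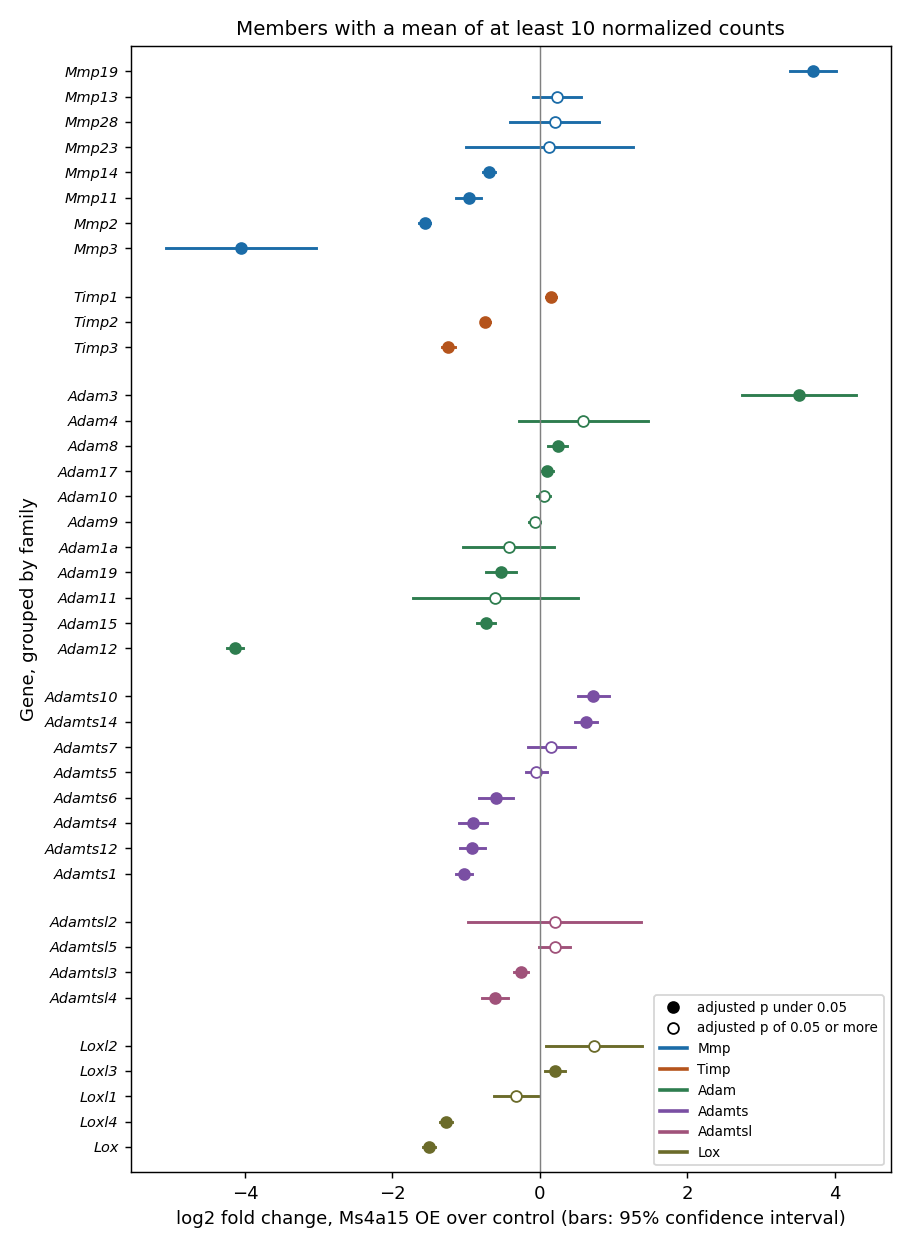
Log2 fold change between Ms4a15 OE and control for the 39 members whose mean reached 10 normalized counts, grouped by family, with 95% confidence intervals as bars. Filled points have an adjusted p under 0.05, and Adam12 (-4.14) and Mmp3 (-4.06) lie farthest to the left, Mmp19 (3.70) and Adam3 (3.51) farthest to the right.

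Of the 5 Mmp genes with a mean of at least 100, Mmp2, Mmp14 and Mmp11 fell, Mmp19 rose and Mmp13 did not pass the test. Among all genes at that level 65.6% differed. Mmp2 encodes gelatinase A, which cuts denatured and basement membrane collagen (chr8:92827291-92853420, plus strand). Its mean was 4457 normalized counts in Ms4a15 OE against 13184 in control (log2 fold change -1.56, SE 0.04, 95% interval -1.64 to -1.49, adjusted p listed as 0), a 2.96-fold lower level. The genes around Mmp2 had a median of -0.40, and the median of chromosome 8 was -0.38. Whether Mmp2 shared in a shift of its surroundings was not tested. With the median of the surrounding genes subtracted, the difference of Mmp2 was -1.16 (adjusted p = 6.40e-202). Here and below, p-values after this subtraction use the gene's own standard error and are adjusted over 16193 genes. They take the median as known and leave out the spread of the surrounding genes. Mmp14, the membrane-bound protease that activates Mmp2 at the cell surface, fell from 11614 to 7192 (-0.69, SE 0.04, 95% interval -0.77 to -0.61, adjusted p = 3.67e-66). The intervals of Mmp2 and Mmp14 did not overlap, though the difference between them was not tested. Mmp11, or stromelysin 3, fell from 754 to 386 (-0.97). Mmp19 (chr10:128790910-128800824, plus strand), a secreted protease, moved the other way, with 574 normalized counts in Ms4a15 OE against 44.0 in control (3.70, SE 0.16, 95% interval 3.39 to 4.02, adjusted p = 5.13e-116), a 13.0-fold higher level. Both sets of whole reads that fitted Mmp19 gave 391 to 658 reads in the Ms4a15 OE libraries and 22 to 66 in control. Reads were searched only near each group mean, which the fold change sets, so this separation adds no support. Of the exon bases of Mmp19, 22.3% are shared with Tmem198b on the opposite strand, and the strand setting of the counting is not given in the sources used here.

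Among the Mmp genes with a mean under 100 the 2 stromelysins of the chromosome 9 cluster, whose promoters are printed above, fell with gelatinase B. Mmp3 had 1, 5 and 5 reads in the Ms4a15 OE libraries against 56, 70 and 79 in control (-4.06, SE 0.52, adjusted p = 5.40e-14). Mmp10 had 1 read in each Ms4a15 OE library and 9, 13 and 8 in control (-3.16, SE 1.09, adjusted p = 0.0101). The groups did not overlap in either gene. From 3 against 30 reads, scaled for depth, the level of Mmp10 was 8.92 times higher in control, with an exact 95% interval of 2.78 to 45.7 that covers counting error only. Mmp9, gelatinase B, had no read in Ms4a15 OE and 13, 14 and 16 in control (adjusted p = 1.89e-05). Against the floor of 3 counts per library this was at least 4.25-fold lower.

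Mmp13, an interstitial collagenase whose gene lies 162 kb from Mmp3, did not pass the test. The sole fitting set of reads was 132, 129 and 164 in Ms4a15 OE and 119, 135 and 151 in control (0.23, 95% interval -0.09 to 0.55, adjusted p = 0.285). In that set, after scaling for depth, the groups of Mmp13 did not overlap, with the Ms4a15 OE libraries slightly higher. The recovery of reads was not checked at this level, so no conclusion is drawn from that separation. Mmp3 and Mmp10 are 46.4 kb apart, and all 3 genes run on the plus strand. The median log2 fold change of the 30 other genes around the cluster was 0.02. Mmp24, a membrane-anchored member, had 13, 9 and 7 reads against 2, 4 and 4 (1.73, adjusted p = 0.0636). Its groups were separate, but it missed the threshold. The remaining members were low: Mmp28 (0.20) and Mmp23 (0.13) had means of 39.9 and 10.8, and Mmp15, Mmp20, Mmp21 and Mmp25 had at most 2 reads in all.

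**Figure D2:**
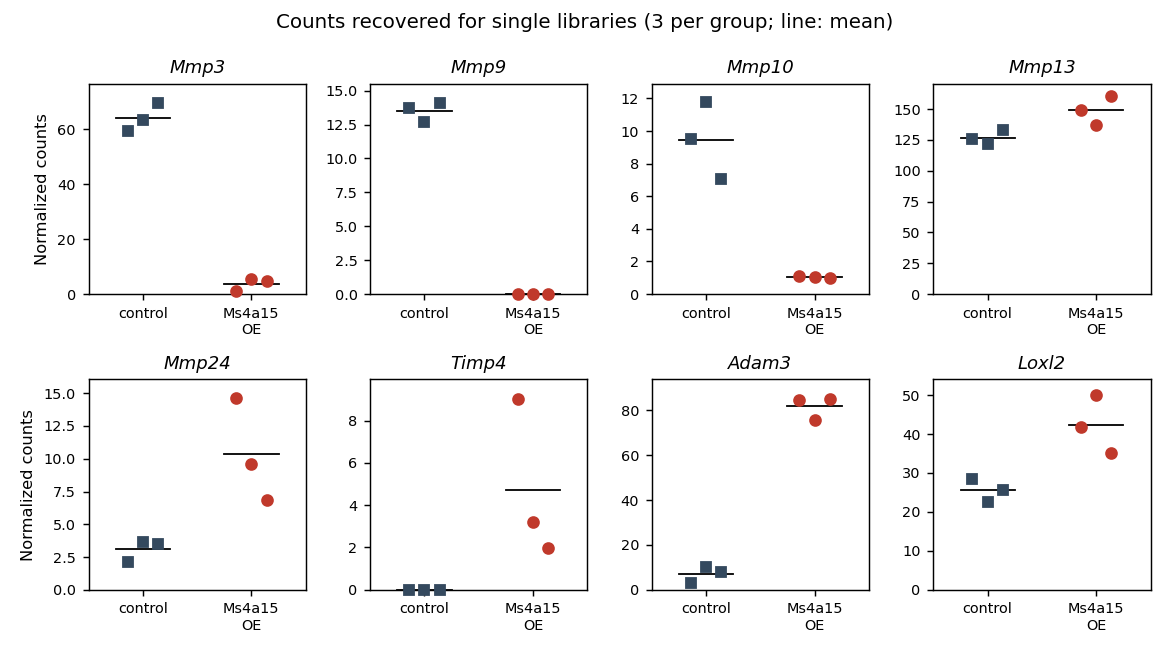
Normalized counts recovered for the single libraries of 8 members with low levels, as points for the 3 control (squares) and 3 Ms4a15 OE libraries (circles), with the group mean as a line and an axis of its own for each gene. Mmp3, Mmp9 and Mmp10 are near 0 in every Ms4a15 OE library, Adam3 and Timp4 are higher there, and Mmp13 differs little.

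All 4 inhibitors differed, in different directions. Among all genes 42.9% differed, and 65.6% of those with a mean of at least 100, a level that Timp1, Timp2 and Timp3 reached. Timp1, a soluble inhibitor of most Mmp enzymes, was slightly higher, at 11541 normalized counts in Ms4a15 OE against 10380 in control (0.15, SE 0.03, 95% interval 0.08 to 0.22, adjusted p = 4.34e-05). Timp2, which also takes part in the activation of Mmp2 by Mmp14, fell from 26791 to 16029 (-0.74, SE 0.03, 95% interval -0.80 to -0.68, adjusted p = 4.29e-116). Timp3 (chr10:86300372-86349506, plus strand), the inhibitor that stays bound to the matrix and also blocks Adam17, fell from 5002 to 2113 (-1.24, SE 0.05, 95% interval -1.33 to -1.15, adjusted p = 1.22e-165). Timp4 was read only in Ms4a15 OE, with 8, 3 and 2 reads against none in control (adjusted p = 0.0103), which is at least 1.66-fold higher against the floor. The control libraries are all at 0, so its fitted log2 fold change of 4.76 (SE 1.64) is no measure of size.

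Timp1, Timp3 and Timp4 lie within synapsin genes on the opposite strand. Timp1 lies in Syn1, which rose from 362 to 677 normalized counts (0.90, adjusted p = 3.84e-19), and with the median of its surrounding genes subtracted the difference of Timp1 was 0.08 (adjusted p = 0.0501). Timp4 lies in Syn2, which rose from 20.7 to 113 normalized counts (2.44, adjusted p = 1.81e-18), and 109 kb from Pparg, which rose too (3.72, adjusted p = 1.33e-61). The median of the genes around Timp4 was 0.28. Timp3 lies in Syn3, with which it shares 21.3% of its exon bases. Syn3 had means of 6.70 normalized counts in Ms4a15 OE against 5.72 in control (adjusted p = 0.886), and any part of shared exons in the values of Timp3 was not tested.

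Levels of different genes are compared here only per kb of exon, counting every annotated exon of a gene. On that scale the Mmp genes summed to 2907 normalized counts per kb in Ms4a15 OE and 6251 in control, a ratio of 0.465. Mmp2 made up 62.6% of the control sum and 45.5% of the Ms4a15 OE sum, Mmp14 31.2% and 41.5%, and Mmp19 0.199% and 5.59%. The Timp genes summed to 17371 per kb in Ms4a15 OE and 19180 in control, a ratio of 0.906. Timp1 gave 60.9% of the Timp sum in control and 74.8% in Ms4a15 OE. The summed Timp level was thus 3.07 times the summed Mmp level in control and 5.98 times in Ms4a15 OE. These sums are of group means, without subtraction of the surrounding genes' median, and carry no test.

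**Figure D3:**
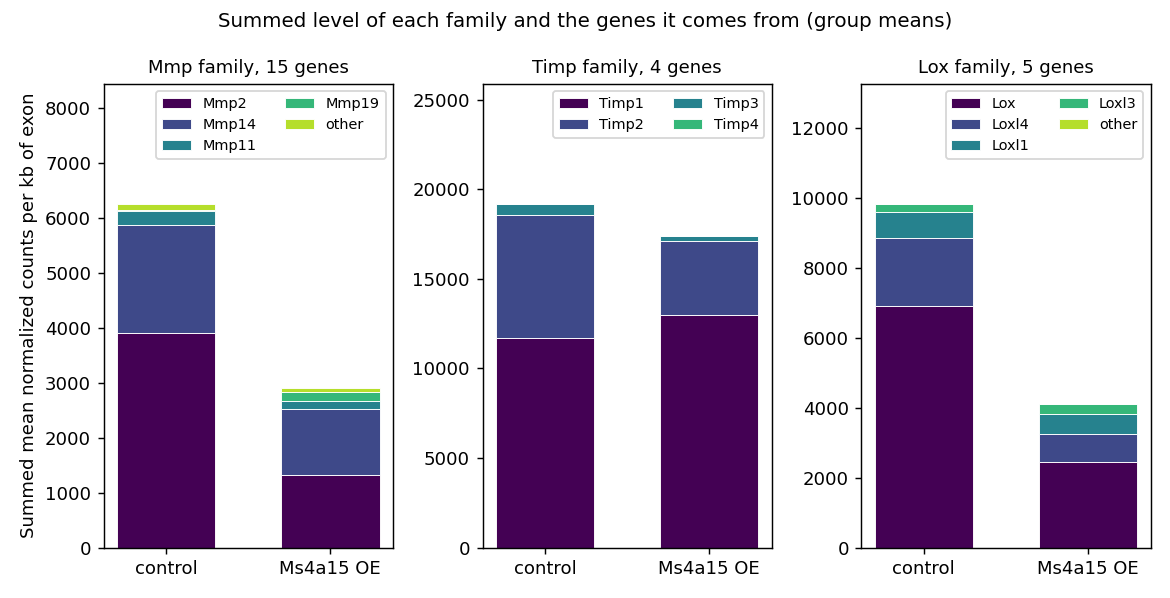
Summed group means of the Mmp, Timp and lysyl oxidase genes in control and Ms4a15 OE, in normalized counts per kb of exon, with the leading genes of each family as coloured segments. The Mmp and lysyl oxidase bars are lower in Ms4a15 OE (ratios 0.465 and 0.418), while the Timp bar is close to that of control (0.906).

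Of the 21 Adam genes 3 rose and 3 fell, a share of 28.6% against 42.9% of all genes. Adam12 (chr7:133883199-134232146, minus strand), or meltrin alpha, a membrane protease of muscle and mesenchymal cells, had 450 normalized counts in Ms4a15 OE against 7932 in control (-4.14, SE 0.06, 95% interval -4.25 to -4.03, adjusted p listed as 0). This 17.6-fold difference took Adam12 from 10.9% of the summed Adam level per kb to 0.709%. The median of the genes around Adam12 was 0.06. Adam19, or meltrin beta, fell from 496 to 342 (-0.53, adjusted p = 1.16e-06). Adam15 fell from 4000 to 2408 (-0.73, adjusted p = 7.26e-30), where the surrounding genes had a median of -0.34 and where an antisense transcript shares 20.6% of its exon bases.

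The main sheddases moved little. Adam10, which cleaves Notch receptors and cadherins, had 12717 normalized counts in Ms4a15 OE against 12266 in control (0.05, SE 0.04, 95% interval -0.03 to 0.14, adjusted p = 0.395). Adam17, the protease that releases tumour necrosis factor and ligands of the EGF receptor, was at 4814 against 4493 (0.10, SE 0.04, 95% interval 0.02 to 0.18, adjusted p = 0.0359). The median of the genes around Adam17 was 0.14, and with that median subtracted its difference was -0.04 (adjusted p = 0.497). Adam9 was at 7870 against 8263 (-0.07, adjusted p = 0.132), and Adam8 rose slightly from 1185 to 1397 (0.24, adjusted p = 0.000742). For Adam10 the upper end of the 95% interval, from the spread between these libraries alone, was 0.14 on the log2 scale.

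Adam3, known as a sperm surface protein of the mouse, had 75, 71 and 87 reads in the Ms4a15 OE libraries against 3, 11 and 9 in control (3.51, SE 0.39, adjusted p = 5.12e-18). Adam3 lies on chromosome 8 in a row of Adam genes. Adam18, on one side of it, had 3, 7 and 9 reads against 1, 2 and 1 (2.40, adjusted p = 0.0672). Adam5, on the other side, had 1 read in all Ms4a15 OE libraries together and 13 in control, 9 of them in a single library (-3.41, adjusted p = 0.0866). The depth-scaled ratio for Adam5, control over Ms4a15 OE, was 11.6, with an exact interval from 1.74 to 493 for counting error only. Adam32 had 12 and 10 reads. Genes around this row that are not members had a median of -0.27, so Adam3 stood 3.78 above its surroundings. Several of these genes are known mainly from the testis. The other Adam members of low level, Adam2, Adam4, Adam11, Adam1a, Adam21, Adam22, Adam23, Adam28, Adam30 and Adam33, did not pass the test.

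Of the 13 Adamts genes 2 rose and 4 fell, a share of 46.2%, close to the 42.9% of all genes. Adamts1 (chr16:85793827-85803113, minus strand), a secreted protease of versican and aggrecan, fell from 2865 to 1406 normalized counts (-1.03, SE 0.05, 95% interval -1.13 to -0.92, adjusted p = 1.72e-76). Adamts4, another aggrecanase, fell from 602 to 320 (-0.91), Adamts12 from 769 to 407 (-0.92) and Adamts6 from 340 to 225 (-0.59). Adamts5, the third aggrecanase, was at 778 against 804 (-0.05, 95% interval -0.19 to 0.10, adjusted p = 0.720). Adamts1 and Adamts5 are neighbours on chromosome 16, 53.1 kb apart, and their intervals did not overlap. Adamts14, an N-propeptidase of procollagen, rose from 561 to 864 (0.62, adjusted p = 6.53e-15), and Adamts10, a protease associated with fibrillin, from 328 to 542 (0.73, adjusted p = 1.00e-10). Adamts2, the main procollagen N-propeptidase, had 2 reads in all. Adamts7 was at 171 against 154 (0.16) and did not pass the test. Adamts8, Adamts15, Adamts16 and Adamts17 had at most 3 reads each. Per kb of exon the Adamts sum was 729 in Ms4a15 OE and 1026 in control, and Adamts1 made up 36.4% and 52.7% of it.

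Among the Adamtsl genes, which share the non-catalytic part of Adamts proteins, Adamtsl4 fell from 938 to 614 (-0.61) and Adamtsl3 from 2573 to 2153 (-0.26). The genes around Adamtsl4 had a median of -0.38. Adamtsl5 (0.20), Adamtsl2 (0.20) and Adamtsl1 (-0.60) did not pass the test.

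**Figure D4:**
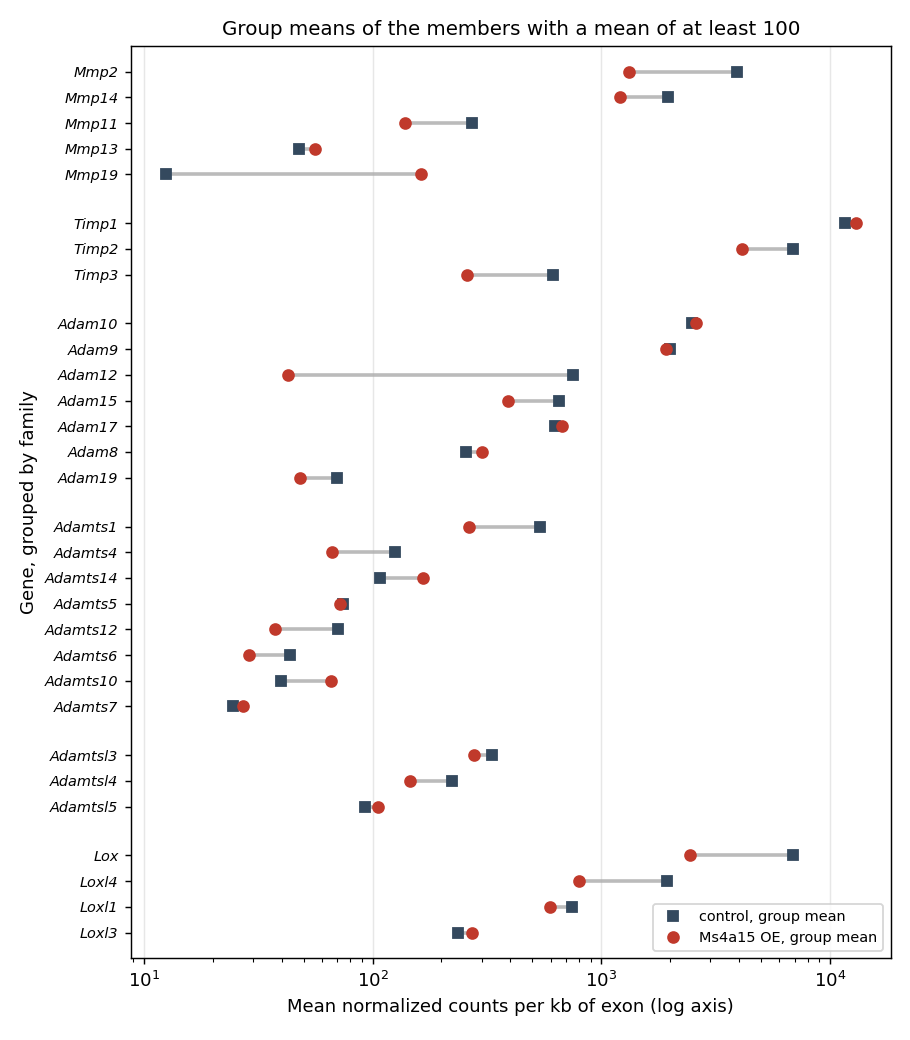
Group means of the 30 members with a mean of at least 100, in normalized counts per kb of exon on a log axis, for control (squares) and Ms4a15 OE (circles), joined by a line and ordered by the control level within each family. Timp1, Timp2 and Lox have the highest control levels, and the longest lines are those of Adam12 and Mmp19.

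Lox, the founding lysyl oxidase, was the most abundant enzyme of its family and fell from 33021 to 11651 normalized counts (-1.50, SE 0.04, 95% interval -1.59 to -1.42, adjusted p = 5.12e-270). Loxl4 (chr19:42593982-42612813, minus strand) fell from 8129 to 3362 (-1.27, SE 0.04, 95% interval -1.36 to -1.19, adjusted p = 2.46e-198). The genes around Lox and Loxl4 had medians of -0.26 and -0.28, and with these subtracted the differences were -1.24 and -0.997. Loxl3 rose slightly, from 1089 to 1251 (0.20, SE 0.07, 95% interval 0.07 to 0.33, adjusted p = 0.00867). Loxl2 had 37, 47 and 36 reads in Ms4a15 OE and 27, 25 and 29 in control (0.73, SE 0.33, 95% interval 0.08 to 1.38, adjusted p = 0.0634). Its groups did not overlap, but it missed the threshold.

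Loxl1, which acts on elastic fibres, was at 1962 against 2458 (-0.33, SE 0.15, 95% interval -0.62 to -0.03, adjusted p = 0.0697). Its standard error was above those of 99.7% of the 4740 genes with means of 1000 to 5000, whose median was 0.06. With the median of the surrounding genes (0.10) subtracted, its difference was -0.43 (adjusted p = 0.0115).

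Per kb of exon the family summed to 4111 in Ms4a15 OE and 9827 in control, a ratio of 0.418. Lox made up 70.3% of the sum in control and 59.3% in Ms4a15 OE, and Loxl1 7.59% and 14.5%.

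Partners of these enzymes were counted in lists set by their role. Of 21 partners and substrates of lysyl oxidases 9 fell and 4 rose, a share of 61.9%, with a median of -0.05. The background is 42.9% over all genes and 65.6% over genes with a mean of 100 or more, a level that 15 of the 21 reached. Among those that fell were the fibrillar collagens Col1a1 (-4.50), Col3a1 (-2.96), Col5a2 (-2.65), Col1a2 (-2.44) and Col5a1 (-1.77). Postn, the matricellular protein periostin, fell from a control mean of 265 normalized counts to a level under the floor in Ms4a15 OE, so its fitted fold change is not given as a size. Mfap5 (4.16) and Tnxb (3.21), of microfibrils and collagen fibrils, rose. Fn1 (-0.05) and Pcolce (0.01) did not pass the test, and Eln, the elastin that lysyl oxidases cross-link, was under the floor in both groups.

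Of 22 regulators of matrix proteases 6 rose and 5 fell, a share of 50% with a median of 0.14, and 16 of them had a mean of 100 or more. This lies between both backgrounds. Serpinh1, the collagen chaperone Hsp47, fell by 0.86 on the log2 scale. Plat, the tissue plasminogen activator, rose (1.07), as did the receptor Plaur (0.29), whereas Plau was slightly lower (-0.19). Furin, which removes the propeptides of many of these enzymes, fell by 0.37 on the log2 scale. Reck, a membrane inhibitor of Mmp enzymes, was at 0.33 (adjusted p = 0.0511).

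Of 23 surface substrates of Adam sheddases 9 rose and 5 fell, a share of 60.9% with a median of 0.28. With 16 of the 23 at a mean of 100 or more, this too lies between the backgrounds of 42.9% and 65.6%. EGF receptor ligands were among those that rose: Areg from 64.9 to 3410 (5.72), Btc from 118 to 523 (2.15) and Hbegf from 1355 to 2979 (1.14). Nrg1 (-0.76), Jag1 (-0.80) and Cx3cl1 (-1.30) fell, and Notch2 (0.01) did not pass the test. Of 12 proteoglycans and related matrix proteins cut by Adamts enzymes 4 rose and 1 fell, a share of 41.7% with a median of 0.44, close to the background of 42.9%. Vcan (0.59) and Bgn (0.30) were abundant and rose, Thbs2 rose (2.12) and Thbs1 fell (-1.33).

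The label of the cells was set against markers. Vim, the mesenchymal filament protein, was at 112480 and 117789 normalized counts (-0.07, adjusted p = 0.117), and the fibroblast list summed to 174142 in Ms4a15 OE and 524065 in control, with 3 of 10 genes higher and 5 lower. The largest drops in that sum were Col1a2, from 228230 to 42080, and Col1a1, from 128302 to 5659, both also counted among the lysyl oxidase substrates. Pdgfrb fell (-3.83), Pdgfra (0.60) and Thy1 (0.69) rose, and the fibroblast marker Lum was under the floor in both groups. Dcn rose too, from under the floor in control to 23.6 normalized counts in Ms4a15 OE. The epithelial list summed to 330 and 194 (3 of 10 higher), the myeloid list to 1719 and 485 (2 of 8 higher, among them Lyz2 at 4.65) and the endothelial list to 240 and 42.0 (3 of 8 higher, among them Cdh5 at 2.85). In Ms4a15 OE, Lyz2 made up 1026 of the myeloid sum and Cdh5 187 of the endothelial sum. None of these 3 lists had a gene that fell. Their shares that differed, 30%, 25% and 37.5%, were below the 42.9% of all genes. The other genes that rose were Krt8, Krt14 and Grhl2 of the epithelial list, Cd68 of the myeloid list, and Pecam1 and Vwf of the endothelial list. Under the floor in both groups were 6 of the 10 epithelial genes, Epcam and Cdh1 among them, 2 of the 8 myeloid genes, and 5 of the 8 endothelial genes, Kdr, Tek, Erg and Tie1 among them. Ptprc was at 7.44 normalized counts in Ms4a15 OE against 14.8 in control and did not pass the test. These sums differed between the same groups as the Mmp and lysyl oxidase sums, and their part in those differences was not tested. In bulk RNA, fewer cells of a kind and less RNA of a gene per cell cannot be told apart.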

How the data were processed

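RNA of 3 Ms4a15 OE and 3 control libraries was poly(A) selected, prepared with a TruSeq kit and sequenced as paired ends. By the methods, the authors aligned the reads to mm10 with STAR and counted them with HTSeq-count; the submitters' processing notes also name TopHat, Cufflinks and Cuffdiff. The authors compared the groups with DESeq2. As deposited, the signal of a gene is its normalized count averaged over the 6 libraries. Its log2 fold change and the standard error were also deposited, as another column each. Each p-value in the deposited table is from a Wald test, with its Benjamini-Hochberg adjustment over 19078 genes; recomputed, the same 8187 genes were under 0.05.

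The edgeR fit planned for counts was not run, since the table has no column for a single library. Size factors were read off the genes with a sole read in the series. Reads of low members were searched for by the mean and the refitted fold change within 2e-06. For a group with a higher mean, only reads within about 4.5 SD of that mean were searched. The procedure was tried on simulated data, but the outcome is not given here, so no conclusion is drawn from it for members with higher means. Among these, Adamts7 (mean 162) and Mmp19 (309) had 2 fitting sets each and Adamts6 (283) had 5, whereas Mmp13 (138) had 1. Positions were those of GENCODE vM21 (GRCm38), which located 16194 genes. Neighbours are up to 20 located non-member genes with a mean of at least 100 on each side. Some members had fewer on one side: in all 30 around the chromosome 9 cluster, 27 around Mmp19 and 37 around Adam22. A floor of 3 counts per library came to 3.17 normalized counts for Ms4a15 OE and 2.84 for control.

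The members, lists and rules were chosen with earlier results of these data known. Full statistics are given for members under the threshold whose mean reached 100 and whose log2 fold change reached 1 in either direction, and for Mmp2, Mmp14, the Timp genes, Adam10, Adam17 and the lysyl oxidases. Other members are named with level and fold change. A gene of the list of regulators is counted but not reported here by name. Alternatives were adjustment over genes whose mean reached 10, a log2 fold change of 1 or more on top of the threshold, centring of all fold changes on their median, subtraction of the neighbours' median, and a test against 1.2-fold. Python 3.11.15, numpy 2.4.6, pandas 2.3.3, scipy 1.17.1 and matplotlib 3.10.9 were used.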

Additional observations from a re-analysis of the deposited data

How the results depend on the processing

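The count of 28 members under the threshold was 12 (3 higher, 9 lower) when a log2 fold change of 1 or more was also required. Adjusted over genes with a mean of at least 10 it was 27, of which 25 were shared; Mmp9, Mmp10 and Timp4 were not tested there, and Loxl1 (adjusted p = 0.0499) and Loxl2 (0.0452) came under the threshold. Against a 1.2-fold change 23 members remained, only 5 of them higher, and Adam8, Adam17, Adamtsl3, Loxl3 and Timp1 were lost. Centring on the median kept all 28. With the neighbours' median subtracted as a known value, over 16193 genes, 28 were called, of which 25 were shared. Adam8, Adam17 and Timp1 were lost, and Adam9, Adam18 and Loxl1 were gained. Adam17 changed sign to -0.0394 (adjusted p = 0.497). The number of members over the floor in a group, 49, was 39 with a minimum mean of 10. No paired analysis was possible because the table holds no values of single libraries; for the same reason leaving out a replicate, another normalization and a second count test were not run. The median standard error was 0.04 for the 17 members with means of at least 1000 and 2.36 for the 24 with means under 10, with Loxl1 at 0.15 the widest of the former.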
